A study of Mus musculus with 18 samples.

Results

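The brush border disaccharidases are the enzymes that the absorptive cells of the small intestine anchor in their microvilli to split dietary sugars. The set held 4 genes, chosen by symbol and mapped to the Ensembl identifiers of the count tables: Sis, Lct, Mgam and Treh, 4 of the 47729 identifiers listed for each library. No threshold on measured values picked them, though earlier results of these data were known when they were chosen. The counts came from epithelial cells sorted from the ileum of mice, the last stretch of the small intestine, and from polyadenylated RNA sequenced in bulk. There were 18 libraries in 3 groups of 6: lactating females at day 7 of lactation, virgin females of matched age, and virgin males. The labels name no genetic modification and no drug, all mice were kept on diet RM3 for breeding and RM1 for maintenance and experiment, and their strain, exact age and sorting gates are not stated in the sources used here. Nothing in the labels states whether the libraries of a group came from different animals, so that the p-values below measure the spread between these libraries.

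Disaccharidases act at the last step of carbohydrate digestion. Sucrase-isomaltase, encoded by Sis, splits sucrose and the branch points and short ends of starch fragments, and maltase-glucoamylase, encoded by Mgam, releases glucose from starch fragments. Lactase, encoded by Lct, splits milk lactose, is high in suckling mammals and in most of them declines after weaning, and is known as a gene of the jejunum more than of the ileum. Trehalase, encoded by Treh, splits trehalose, a sugar of fungi and insects, and is held in the membrane by a lipid anchor. All of these enzymes belong to mature enterocytes of the villus and are low in the dividing cells of the crypt. The released glucose and galactose enter the cell through sodium-coupled carriers and fructose through a carrier of its own.

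The libraries held between 34577104 and 49039300 counted reads. All 11 genes of the microvillus structure list and all 5 markers of the distal small intestine passed the filter on low counts, and the 5 distal genes together gave 3352 to 16274 CPM per library (the reads of a gene relative to the library size, which was scaled by the trimmed mean of M-values, TMM). The T cell and B cell markers Cd3e, Cd3g, Cd8a and Cd79a did not pass the filter, with at most 17 reads in any library. The collagen and smooth muscle genes Col1a1, Col1a2, Col3a1, Acta2 and Myh11 had at most 7. Of the 8 immune markers 4 passed, Ptprc, Itgae, Lyz2 and Cd68, and the list summed to 5.62 to 44.98 CPM per library. Of the 7 stromal markers 2 passed, Vim and Pecam1, with 1.97 to 5.83 CPM. RNA of such cells was therefore low but not absent. The summed level of 20 cell cycle genes differed between libraries, from 390.2 to 1193 CPM in the lactating group, 382.2 to 1158 among virgin females and 802.6 to 1074 among males. One virgin female library, number 2, and one virgin male library, number 6, stood apart by the transcript Gm42418, at 31048 and 29980 TMM-scaled CPM against 1230 to 4477 in the other 16. Values without these 2 libraries are given beside the results they move.

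Sis (ENSMUSG00000027790) lies on chromosome 3 at 72888557 to 72967863 on the minus strand of build GRCm38, Mgam (ENSMUSG00000068587) on chromosome 6 at 40628831 to 40769123 on the plus strand, Lct (ENSMUSG00000026354) on chromosome 1 at 128284756 to 128328318 on the minus strand, and Treh (ENSMUSG00000032098) on chromosome 9 at 44673233 to 44686305 on the plus strand. The 4 genes are therefore not neighbours. The 250 bases before each annotated start are printed because some of the genes varied together between libraries, as given further on. All 4 matched the RefSeq promoter table of GRCm38.p6, at chr3:72967864-72968113 for Sis, chr6:40628581-40628830 for Mgam, chr1:128328319-128328568 for Lct and chr9:44672983-44673232 for Treh. The sequences run 5′ to 3′ on the strand of the gene, and capitals mark the letters of the motifs searched.
Sis: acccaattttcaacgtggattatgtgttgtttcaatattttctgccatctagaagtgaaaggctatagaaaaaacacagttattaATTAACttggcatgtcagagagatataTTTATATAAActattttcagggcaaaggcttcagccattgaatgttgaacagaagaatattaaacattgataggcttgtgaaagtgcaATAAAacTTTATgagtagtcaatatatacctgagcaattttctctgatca
Mgam: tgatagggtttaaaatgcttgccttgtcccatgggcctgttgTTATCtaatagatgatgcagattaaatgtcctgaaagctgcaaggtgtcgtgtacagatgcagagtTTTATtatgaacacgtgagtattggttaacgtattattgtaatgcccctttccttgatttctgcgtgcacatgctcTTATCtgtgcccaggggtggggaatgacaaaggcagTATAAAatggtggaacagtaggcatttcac
Lct: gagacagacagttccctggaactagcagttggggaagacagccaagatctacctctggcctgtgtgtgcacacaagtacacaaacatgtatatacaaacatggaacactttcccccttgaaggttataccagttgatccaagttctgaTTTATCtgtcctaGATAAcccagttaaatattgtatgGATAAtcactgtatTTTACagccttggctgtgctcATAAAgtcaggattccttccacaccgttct
Treh: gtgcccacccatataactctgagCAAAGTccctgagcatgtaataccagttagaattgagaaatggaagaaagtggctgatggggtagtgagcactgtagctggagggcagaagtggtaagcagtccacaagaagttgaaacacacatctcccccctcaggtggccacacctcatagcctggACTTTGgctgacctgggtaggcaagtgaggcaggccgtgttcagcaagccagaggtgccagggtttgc

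Both strands were searched for short core motifs of factors known from intestinal promoters. The GATA core, GATAA, occurred 3 times before Lct and 2 times before Mgam, and in 22.6% of all 32851 promoters of the same length. A core of the caudal-type factors Cdx1 and Cdx2, TTTAT, occurred 4 times before Sis and 2 times each before Lct and Mgam, against 37.3% of all promoters with a match, and its variant TTTAC occurred 1 time before Lct, against 28.3%. The HNF1 core GTTAAT matched 1 time before Sis (6.43% of all promoters), the HNF4 core CAAAGT 2 times before Treh (12.6%), and the TATA box letters TATAAA 2 times before Sis and 1 time before Mgam (12.4%). Each match to TATAAA overlaps a match to TTTAT on the other strand, and the GATAA match of Lct farthest from the start, at 101 to 97 bases before it, overlaps a TTTAT match. The GC content of the windows was 31.6% for Sis, 42.4% for Mgam, 42.8% for Lct and 53.2% for Treh, beside a median of 52.4% over all promoters. None of the motifs searched was found before all 4 genes, and Treh had no match to the GATA, caudal-type, HNF1 or TATA letters in this window. These matches describe letters only.

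**Figure D1:**
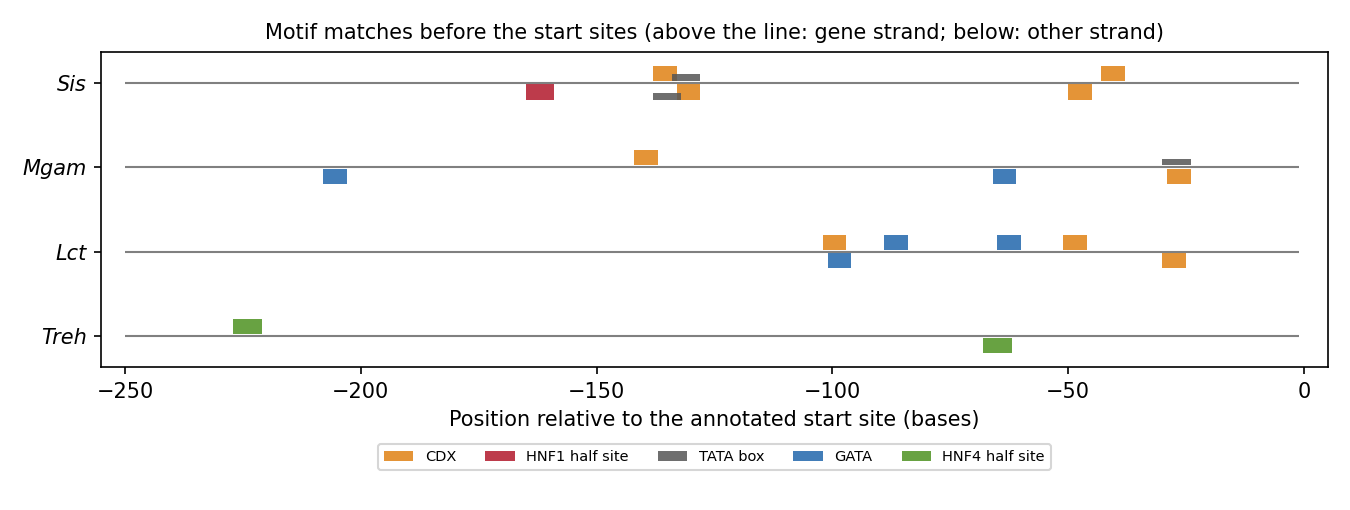
Positions of motif matches in the 250 bases before the start sites of Sis, Mgam, Lct and Treh; the x axis gives bases relative to the annotated start, boxes above a line lie on the gene's strand and boxes below it on the other strand, and colours name the factor family. GATA matches appear before Lct and Mgam, and HNF4 matches before Treh only among the 4.

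All 4 disaccharidases were expressed in every library, with Sis and Mgam the most abundant. Per kilobase of merged exon length, the mean level over 18 libraries was 327.6 CPM per kb for Sis, which placed it 231st of 15572 genes tested, 265.8 for Mgam (271st), 136.0 for Lct (474th) and 92.02 for Treh (696th). The order Sis, Mgam, Lct, Treh held for the means of all 3 groups. The ranges of Sis and Mgam overlapped in each group, as in lactating females, where Sis ran from 303.3 to 419.1 and Mgam from 195.1 to 361.7 CPM per kb, while Sis was the higher of the 2 in 16 of 18 libraries. Mgam was above Lct in 16 of 18 libraries, and the ranges of these 2 did not overlap in virgin males, with Mgam at 236.4 to 302.4 and Lct at 34.7 to 140.8. Lct and Treh overlapped in each group, and Lct was the higher in 13 of 18 libraries.

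The 4 genes differed in how much they varied between libraries of one group. The highest of the 18 CPM values was 1.92 times the lowest for Mgam, 2.47 times for Sis, 5.44 times for Treh and 9.01 times for Lct. Within groups the coefficient of variation was 17.8% for Mgam and 21.3% for Sis, near the median of 17.2% over the 10071 genes with a mean of at least 5 CPM. It was 47.9% for Treh and 58.0% for Lct, above that of 96.7% and 98.3% of those genes. In per-kilobase shares of the 4 genes together, Lct made up 4.80% to 29.1% among the lactating libraries, 16.6% to 29.1% among virgin females and 6.73% to 17.96% among males, and Sis 42.5% ± 6.08, 38.2% ± 5.09 and 40.2% ± 1.996 (SD, n = 6).

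Sis, the gene of sucrase-isomaltase, lay between 2264 and 3128 CPM in the lactating group (median 2501), between 1791 and 3681 among virgin females (median 2441) and between 1492 and 2620 in virgin males (median 2180). The lowest value was virgin male 6 and the highest virgin female 1, and the 3 groups overlapped. Virgin females spread more widely (SD 740.8) than lactating females (SD 311.0).

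Mgam, the gene of maltase-glucoamylase, lay between 1698 and 3148 CPM in the lactating group (median 2081), between 1640 and 2843 among virgin females (median 2542) and between 2057 and 2632 in virgin males (median 2331). The 6 male libraries stood closest together (SD 210.3) and fell inside the range of both female groups. A transcribed pseudogene next to Mgam, Mgam2-ps (chromosome 6, 40778711 to 40855600), had 48.1 to 140.1 CPM, or 2.84% to 5.38% of the Mgam level in the same library. How the counting treated reads that match more than 1 place is not stated in the sources used here, so reads of the 2 may have been exchanged, and the extent of this was not tested.

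Lct, the gene of lactase, had the widest spread of the 4. It ran from 268.3 to 2003 CPM in the lactating group (median 605.1), from 646.8 to 1977 among virgin females (median 1075) and from 222.5 to 902.1 in virgin males (median 603.5). Both extremes among females were lactating libraries: number 1 had the highest value of all 18, and number 3 the lowest value of any female. Among virgin males 4 of the 6 libraries lay below the lowest virgin female, while the other 2 lay inside the virgin female range.

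Treh, the gene of trehalase, ran from 100.7 to 410.2 CPM in the lactating group (median 189.8), from 92.6 to 336.2 among virgin females (median 211.6) and from 75.4 to 199.7 in virgin males (median 143.5). The highest library was again lactating 1 and the lowest virgin male 6, the same libraries as for Lct. The last bases of Treh overlap the end of Phldb1 on the opposite strand (44686304 to 44735198), which had 696 to 2542 reads per library. Whether the counting used strand is not stated in the sources used here.

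**Figure D2:**
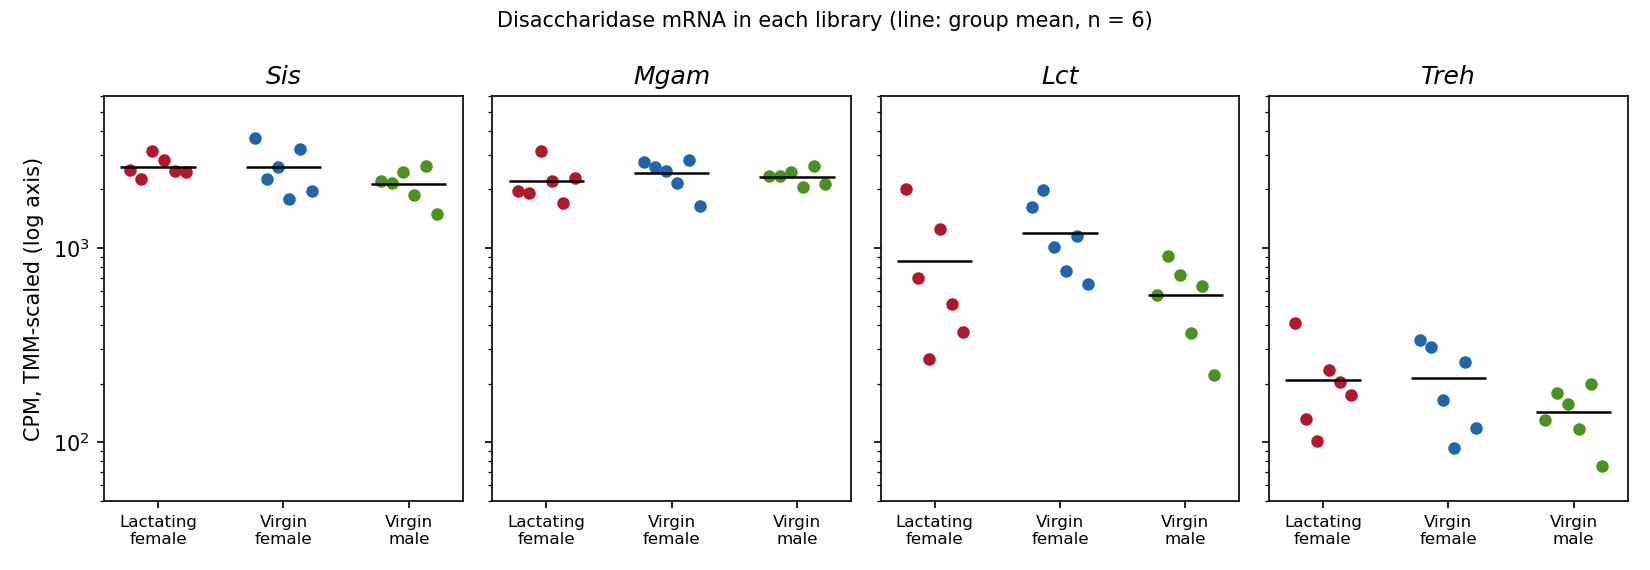
TMM-scaled CPM (log axis) of Sis, Mgam, Lct and Treh in each of 18 libraries; points are libraries and the black line is the mean of 6. Sis and Mgam sit in narrow bands between 1492 and 3681 CPM, whereas Lct spreads from 222.5 to 2003 and Treh from 75.4 to 410.2.

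The first comparison asked whether the ileal epithelium of lactating females, which are known to eat more than virgin animals, carried other levels of these mRNAs than that of virgin females. None of the 4 differed beyond the spread between libraries. The mean ± SD (n = 6) was 2612 ± 311 CPM in lactating against 2589 ± 740.8 in virgin females for Sis, 2204 ± 509.6 against 2414 ± 452.2 for Mgam, 850.1 ± 662.6 against 1194 ± 515.7 for Lct and 209.6 ± 109.7 against 212.8 ± 101.8 for Treh. By edgeR's quasi-likelihood test with Benjamini-Hochberg adjustment over 15572 genes, 0 of the 4 passed an adjusted p of 0.05, beside 0.0578% of all genes tested (9 genes). At an unadjusted p under 0.05 the members also numbered 0, beside 6.44% of all genes tested, and DESeq2 called 0 of them.

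The intervals say which sizes of change the libraries left room for. For Sis the log2 fold change was 0.01 (SE 0.18, 95% interval -0.37 to 0.40, adjusted p = 0.999), and for Mgam -0.13 (SE 0.16, -0.47 to 0.21, adjusted p = 0.951), so that a doubling of either lay outside its interval. For Treh it was -0.02 (SE 0.34, -0.74 to 0.70, adjusted p = 0.999). For Lct it was -0.49 (SE 0.44, -1.40 to 0.42, adjusted p = 0.929), and the interval held a change of more than 2-fold downward. Without lactating 1, the library with the most Lct, the Lct value was -0.95, without lactating 3 it was -0.31, and without virgin female 2 and virgin male 6 it was -0.29.

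The second comparison asked about sex, virgin males against virgin females. All 4 log2 fold changes were below 0, with a median of -0.43 beside -0.01 over all genes, but 0 of 4 members passed the adjusted test by edgeR or DESeq2, beside 0.0835% of all genes tested (13 genes). The largest difference was that of Lct, 569.2 ± 244.9 CPM in males against 1194 ± 515.7 in virgin females (SD, n = 6), a log2 fold change of -1.07 (SE 0.44, 95% interval -1.99 to -0.15). Its p of 0.0253 in the edgeR fit was the one member p under 0.05 in this comparison, where 8.32% of all genes tested had one, and after adjustment it was 0.565. All 6 males lay below the virgin female mean of Lct.

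The Lct value depended on the covariate and on the libraries used. The 20 cell cycle genes all had log2 fold changes above 0 in males against virgin females (median 0.36, 0 called and 0 at an unadjusted p under 0.05), and the 11 microvillus structure genes all below 0 (median -0.47, 0 called and 7 at an unadjusted p under 0.05). With the cell cycle score of each library as a covariate the Lct value was -0.55, and without virgin female 2 and virgin male 6 it was -0.70. In bulk RNA, fewer cells of a type and less RNA per cell cannot be told apart.

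Treh gave 143.0 ± 45.1 CPM in males against 212.8 ± 101.8 in virgin females, a log2 fold change of -0.57 (SE 0.35, interval -1.30 to 0.15, edgeR adjusted p = 0.571), and all 6 males lay below the virgin female mean. With the cell cycle score as a covariate its sign turned, to 0.08, and without virgin female 2 and virgin male 6 it was -0.31. Sis gave 2135 ± 407.6 CPM in males, a log2 fold change of -0.28 (SE 0.18, interval -0.66 to 0.11, edgeR adjusted p = 0.574), with 5 of 6 males below the virgin female mean. Without virgin female 1, the library with the most Sis, it was -0.15. Mgam gave 2323 ± 210.3 CPM, a log2 fold change of -0.06 (SE 0.16, interval -0.40 to 0.29, edgeR adjusted p = 0.904).

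The third comparison set lactating females against virgin males, groups that differ in sex and in reproductive state together. Here 0 of 4 members passed by edgeR or DESeq2, beside 0.764% of all genes tested (119 genes). None of the 4 had an unadjusted p under 0.05 in edgeR, beside 15.9% of all genes tested. The log2 fold changes were 0.29 for Sis (SE 0.18, interval -0.09 to 0.68, edgeR adjusted p = 0.428), 0.58 for Lct (SE 0.44, -0.34 to 1.49, adjusted p = 0.492), 0.55 for Treh (SE 0.35, -0.17 to 1.27, adjusted p = 0.424) and -0.08 for Mgam (SE 0.16, -0.42 to 0.27, adjusted p = 0.814). All 6 lactating libraries lay above the male mean for Sis, 4 of 6 for Treh and 3 of 6 for Lct. Without lactating 1 the Lct value was 0.12 and that of Treh 0.24, and without virgin female 2 and virgin male 6 they were 0.41 and 0.42. This comparison shares its lactating libraries with the first and its males with the second, so the 3 sets of values are not separate evidence.

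**Figure D3:**
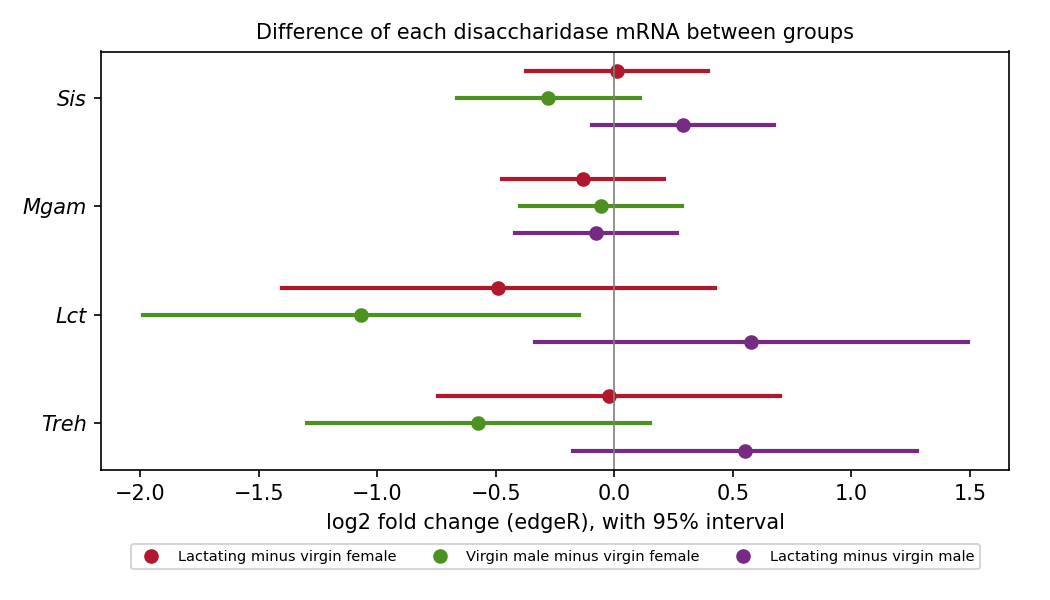
log2 fold change of each disaccharidase in the 3 comparisons (x axis), with lines for the 95% interval of the edgeR fit over 18 libraries. The intervals of Sis and Mgam hold 0 and are narrower than those of Lct and Treh. Those of Sis run from -0.66 to 0.11 in males minus virgin females and from -0.09 to 0.68 in lactating females minus males. The interval of Lct in males minus virgin females, -1.99 to -0.15, is the one that does not hold 0.

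Ratios of one member to another within a library asked whether the enzymes' mRNAs kept their proportions. Each ratio was the difference of log2 CPM, and 6 pair ratios and 4 ratios to the mean of the 11 microvillus structure genes were compared in 3 contrasts, 30 two-sided exact permutation tests whose smallest possible p was 0.00216. None of the 30 passed after Benjamini-Hochberg adjustment, and the lowest adjusted p was 0.0649.

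Of the 6 ratios tied at that adjusted p, 5 were from males against virgin females and 4 of these held Lct. The log2 ratio of Lct to Mgam was -1.10 ± 0.43 (SD, n = 6) in virgin females, -2.16 ± 0.65 in males and -1.69 ± 1.28 in the lactating group. Males lay 1.06 below virgin females on this scale (exact permutation p = 0.00433, adjusted p = 0.0649), and 5 of the 6 males lay below all 6 virgin females. In the same contrast the ratio of Sis to Lct was 0.84 higher in males (exact permutation p = 0.0108, adjusted p = 0.0649), Lct was 0.61 lower relative to Treh (exact permutation p = 0.013, adjusted p = 0.0649) and 0.68 lower relative to the structure genes (exact permutation p = 0.013, adjusted p = 0.0649), and Mgam was 0.38 higher relative to the structure genes (exact permutation p = 0.0108, adjusted p = 0.0649). When virgin male 2, the male library with the most Lct, was left out, 4 ratios passed in the exact permutation test: Lct to Mgam at -1.22, Sis to Lct at 0.996 and Lct to the structure genes at -0.80 with an adjusted p of 0.0216 each, and Lct to Treh at -0.69 with 0.0487. With all 12 libraries these 4 ratios did not pass. Each of them passed in 1 of the 12 exact permutation tests that left out 1 library, and their highest adjusted p were 0.130 to 0.158. Without virgin female 2 and virgin male 6 the Lct to Mgam difference was -0.70, and the other ratios named here were not past the threshold either (lowest adjusted p over the 30 ratios = 0.204, exact permutation test).

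Of the 6 pair ratios, Sis to Mgam varied least between libraries in each group. It was 0.27 ± 0.20 in the lactating group, 0.08 ± 0.26 in virgin females and -0.14 ± 0.19 in males (SD, n = 6). Lactating females exceeded males by 0.41 (exact permutation p = 0.00649, adjusted p = 0.0649). Without lactating 3, the library with the highest Mgam, this difference was 0.46 and passed (exact permutation test, adjusted p = 0.0433), as did Mgam to the structure genes at -0.69 (adjusted p = 0.0433) and Mgam to Treh at -0.86 (adjusted p = 0.0487). Each of these ratios passed in 1 of the 12 exact permutation tests that left out 1 library, and their highest adjusted p were 0.130, 0.170 and 0.671. Relative to Treh, Lct in lactating females was 0.71 below virgin females (exact permutation p = 0.0368, adjusted p = 0.138).

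Of the 6 pairs of members, Lct and Treh varied together most closely across the 18 libraries, with Pearson's r = 0.824 and Spearman's rho = 0.746 of log2 CPM (permutation test over 18 libraries, adjusted p = 0.000364 and 0.00312 over 26 relations). The value was 0.854 among lactating libraries alone, 0.917 among virgin females and 0.920 among males, and over all libraries it was 0.749 without virgin female 2 and virgin male 6, and 0.725 without the 2 farthest from the median Lct (lactating 1 and virgin male 6). Sis and Mgam gave r = 0.577 and rho = 0.616 (permutation test, adjusted p = 0.0239 and 0.0185), with 0.800, 0.766 and 0.871 within the 3 groups in the same order and 0.480 without lactating 3 and virgin female 6. Without virgin female 2 and virgin male 6 it was 0.658.

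The other relations between members had unlike values in the 3 groups. Sis with Treh gave r = 0.644 over all libraries (rho = 0.647, permutation test, adjusted p = 0.0105 and 0.0125), made up of 0.804 in virgin females, 0.925 in virgin males and -0.25 in lactating females. Lct with Mgam gave 0.103 (adjusted p = 0.738 by permutation), with 0.790, 0.698 and -0.52 in the same order, and Mgam with Treh 0.175 (adjusted p = 0.603 by permutation), with 0.783, 0.794 and -0.56. Sis with Lct gave 0.432 (adjusted p = 0.112 by permutation). Each within-group value rests on 6 libraries and was given no p, and the difference between lactating and virgin groups was not tested. Lactating 3 had the highest Sis and Mgam of its group (3128 and 3148 CPM) and the lowest Lct and Treh (268.3 and 100.7 CPM). The negative values within lactating females may therefore rest on this library, and values without it were not computed.

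**Figure D4:**
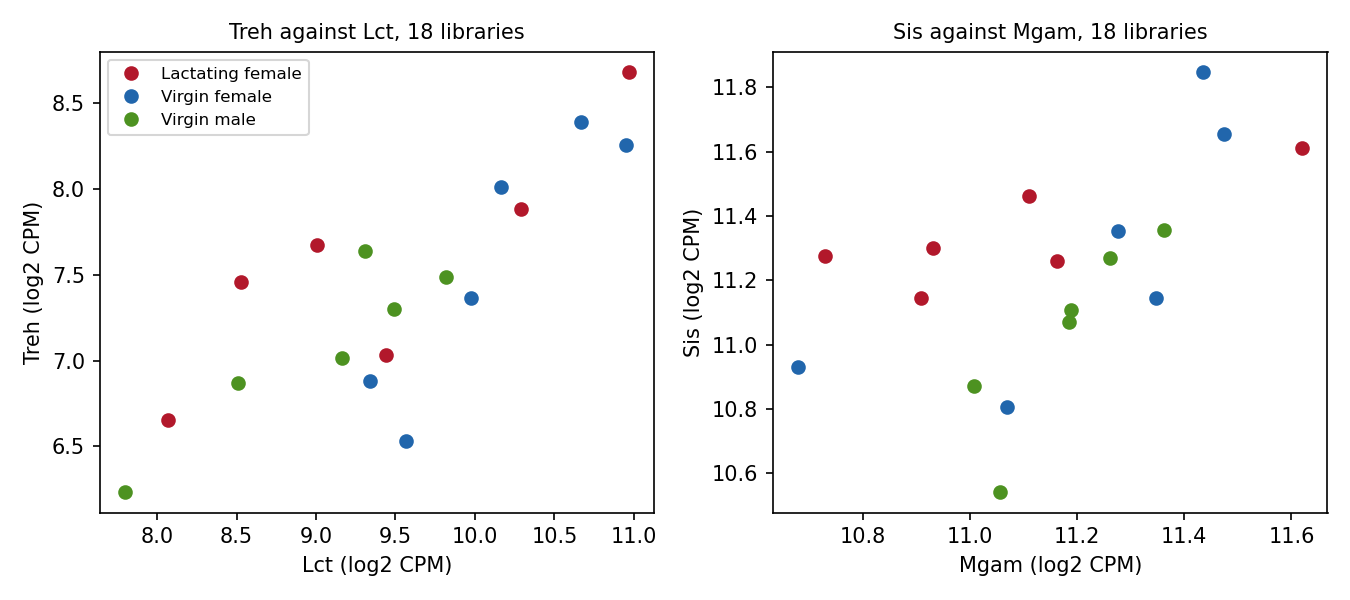
log2 CPM of Treh against Lct (left) and Sis against Mgam (right) in 18 libraries, coloured by group. Both clouds rise from lower left to upper right, more tightly for Treh against Lct (r = 0.824) than for Sis against Mgam (r = 0.577).

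To describe where in the tissue these differences between libraries lay, each gene was set against 5 marker scores, each the mean log2 CPM of a list: 20 cell cycle genes of the crypt, 10 genes of the villus tip, 11 of the microvillus structure, 5 proximal and 5 distal genes of the small intestine. Treh passed with all 5. It was lower where cell cycle genes were higher (r = -0.88, rho = -0.86, permutation test over 18 libraries, adjusted p = 0.000173), and higher with the microvillus structure (r = 0.863), villus tip (r = 0.839), proximal (r = 0.741) and distal scores (r = 0.693), with adjusted permutation p of at most 0.0047. Within lactating females, virgin females and virgin males, r of Treh with the cell cycle score was -0.89, -0.97 and -0.53. It was -0.80 without lactating 1 and virgin female 1, the libraries farthest from the median score. In the same order of groups, r of Treh was 0.972, 0.392 and 0.865 with the proximal score, and 0.672, 0.878 and 0.063 with the distal score. The proximal genes differed: r of Treh was 0.890 with Fabp1 and 0.888 with Rbp2, but 0.367 with Onecut2, 0.185 with Gata4 and -0.52 with Cybrd1.

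Lct went with the proximal score most closely (r = 0.780, rho = 0.711, permutation test, adjusted p = 0.000477 and 0.00524), at 0.834 within lactating females, 0.892 within virgin males and 0.122 within virgin females, and at 0.617 without lactating 3 and virgin male 6. Without virgin female 2 and virgin male 6 it was 0.716 (permutation test, adjusted p = 0.00789). The 5 genes of this score differed: r of Lct was 0.807 with Fabp1 and 0.717 with Rbp2, but 0.338 with Gata4, 0.321 with Onecut2 and -0.15 with Cybrd1, and the distal gene Cubn gave 0.804. With the distal score it gave r = 0.416 (adjusted p = 0.124 by permutation). Its relations to the cell cycle (r = -0.64), microvillus structure (r = 0.616) and villus tip scores (r = 0.562) passed with adjusted permutation p of 0.0105, 0.0150 and 0.0285. Without virgin female 2 and virgin male 6 the structure (0.53, adjusted permutation p = 0.0682) and villus tip relations (0.43, adjusted permutation p = 0.173) did not pass. The 3 values were -0.45, 0.448 and 0.299 without the 2 libraries farthest on each score. For the villus tip score these libraries were lactating 1 and virgin male 6, and its rho of 0.420 did not pass (adjusted p = 0.135 by permutation). Within lactating females, virgin females and virgin males, r of Lct with the villus tip score was 0.514, 0.790 and 0.712.

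Sis went with the microvillus structure score (r = 0.798, rho = 0.818, permutation test, adjusted p = 0.000364 and 0.000260) and the distal score (r = 0.629, adjusted p = 0.0122 by permutation), and was lower with the cell cycle score (r = -0.55, adjusted p = 0.0303 by permutation). With the villus tip score r was 0.504 and rho 0.533 (permutation test, adjusted p = 0.0508 and 0.0430). The structure relation was 0.932 within virgin females and 0.880 within virgin males but 0.127 within lactating females. That with the distal score was 0.948 within virgin females, 0.099 within virgin males and -0.27 within lactating females. With the cell cycle score r of Sis was -0.87, -0.39 and 0.12 in the same order of groups. Over all libraries but lactating 1 and virgin female 1 it was -0.44. Mgam passed with none of the 5 scores over 18 libraries. Its r with the structure score was 0.334, with 0.866 within virgin females, 0.900 within virgin males and -0.17 within lactating females. Whether lactating females differ in these relations from the virgin groups was not tested.

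**Figure D5:**
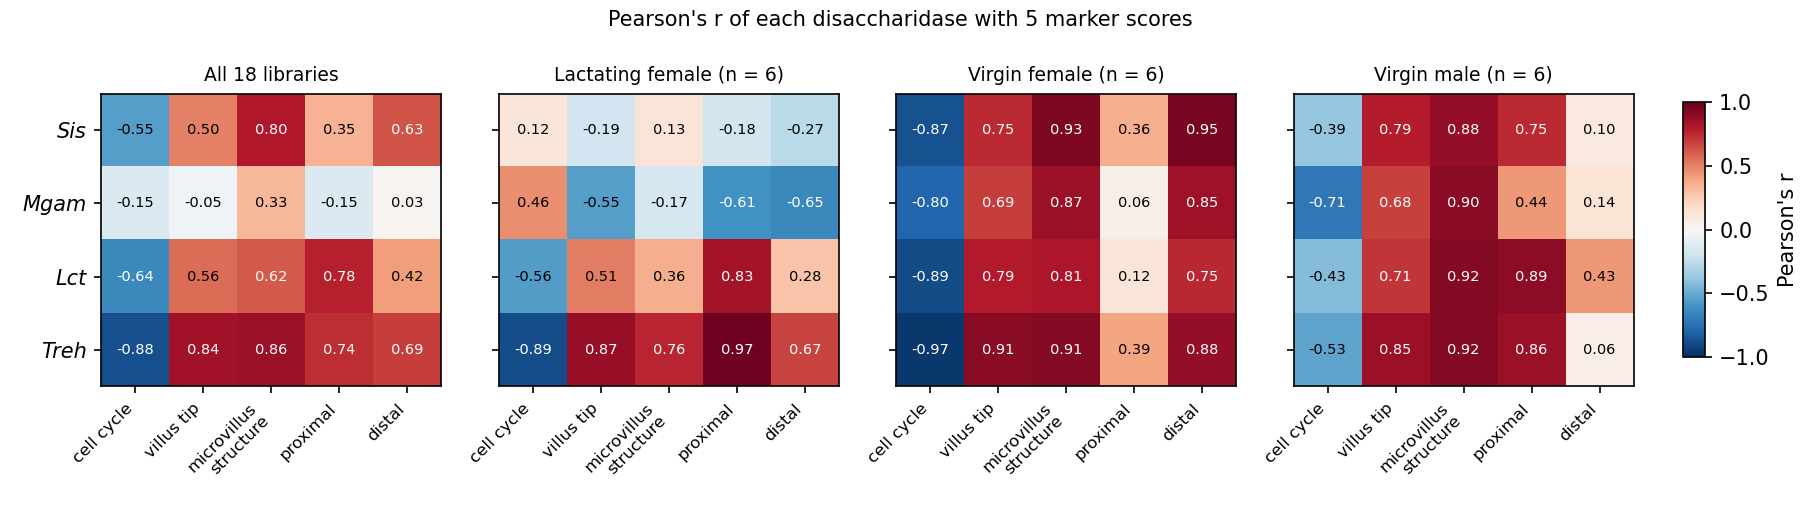
Pearson's r of log2 CPM of Sis, Mgam, Lct and Treh (rows) with 5 marker scores (columns), over 18 libraries and within each group of 6; red is positive and blue negative. Treh keeps its negative cell cycle and positive villus tip values in all 3 groups, while Sis and Mgam show weak or negative villus tip values in lactating females and positive ones in both virgin groups.

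The genes most like each member, by Pearson's r of log2 CPM over the 18 libraries among 9383 genes with a mean of at least 5 CPM, are a description without a test, since all genes share the libraries and their makeup. For Treh they were Cyp2d22 (0.990), the carnitine carrier Slc22a5 (0.972), Cyp4b1 (0.959), intestinal alkaline phosphatase Alpi (0.959) and Ttc39c (0.956). For Lct they were Efr3b (0.957), Cnnm2 (0.956), the haem exporter Flvcr1 (0.949), the vitamin C carrier Slc23a1 (0.949) and Cyp4v3 (0.949). For Sis they were the carotenoid oxygenase Bco2 (0.901), Parp9 (0.899), the proton pump subunit Atp6v0a2 (0.897), Cyb5b (0.895) and Tubal3 (0.894), and for Mgam the ubiquitin peptidase Usp12 (0.892), Coro2a (0.877), Zyg11b (0.860), Rnf213 (0.850) and Trappc10 (0.850). Among the members, Treh stood at place 192 in the list of Lct and Lct at place 657 in that of Treh, Sis at place 290 in the list of Mgam, and Treh at place 1304 and Mgam at place 1834 in that of Sis.

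The genes that take up and first metabolise the released sugars were read from a list of 12. Against virgin females, 0 of 12 were called by edgeR in lactating females and 0 of 12 in males, with 3 and 6 at an unadjusted p under 0.05 (6.44% and 8.32% of all genes tested). In males against virgin females 10 of 12 log2 fold changes were below 0 with a median of -0.48, beside the members' -0.43: the basolateral glucose carrier Slc2a2 gave -1.11 (SE 0.33), Slc5a4a, of the sodium-glucose carrier family, -0.995 (SE 0.33) and the fructose carrier Slc2a5 -0.58 (SE 0.22), each with an edgeR adjusted p of 0.565. In lactating females against males 10 of 12 log2 fold changes were above 0, with 4 at an unadjusted p under 0.05 (15.9% of all genes tested). There 1 of 12 was called by edgeR, beside 0.764% of all genes tested. It was Slc5a4a, at 21.5 CPM in males and 97.9 in lactating females, a log2 fold change of 2.19 (SE 0.34, edgeR adjusted p = 0.00208). Reads of Slc5a4a and its close relative Slc5a4b may have been exchanged, so this value is uncertain. In the same comparison the 5 distal markers were all above 0 (median log2 fold change 1.06, 0 called and 5 at an unadjusted p under 0.05) and the 20 cell cycle genes all below 0 (median -0.28, 0 called and 0 at an unadjusted p under 0.05), and their part in the Slc5a4a value was not tested. There Slc2a2 gave 1.23 (adjusted p = 0.0988) and the glucose and galactose carrier Slc5a1 0.66 (adjusted p = 0.218). In lactating against virgin females Slc5a4a gave 1.19 (SE 0.33, edgeR adjusted p = 0.322).

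Other digestive enzymes of the same membrane had values of the same sign as Lct in both comparisons with males. Of 12 brush border peptidases and related hydrolases, 0 were called by edgeR in any of the 3 comparisons (1, 10 and 8 at an unadjusted p under 0.05, in the order above, beside 6.44%, 8.32% and 15.9% of all genes tested), while 12 of 12 log2 fold changes were below 0 in males against virgin females, with a median of -0.65. Aminopeptidase P Xpnpep2 gave -0.88, angiotensin-converting enzyme Ace -1.03, aminopeptidase N Anpep -0.81 and dipeptidyl peptidase Dpp4 -0.69, each with an edgeR adjusted p of 0.565. In lactating females against males 12 of 12 were above 0 with a median of 0.57, and in lactating against virgin females 3 of 12 were above 0 with a median of -0.08. The 11 microvillus structure genes, among them the linker ezrin (Ezr, -0.58 in males against virgin females) and plastin 1 (Pls1, -0.63), had the same signs in the comparisons with males and 5 of 11 values above 0 in lactating against virgin females, with 0 called by edgeR and 0, 7 and 6 at an unadjusted p under 0.05 in the 3 comparisons.

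Relatives of the enzymes had values on both sides of 0. The list of 13 held genes of the same or neighbouring glycosidase families, among them Klb and the pseudogene Mgam2-ps next to Mgam. Of the 13, 11 passed the filter and 0 were called by edgeR in any comparison (0, 1 and 4 at an unadjusted p under 0.05, against the same shares of all genes). Their median log2 fold change in males against virgin females was -0.01, that of all genes. The neutral glucosidase Ganc gave -0.49 (SE 0.17, edgeR adjusted p = 0.565). The lactase-like gene Lctl had at most 5 reads in a library and salivary amylase Amy1 at most 17, and neither was tested.

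Among 18 transcription factors of the intestine 17 passed the filter and 0 were called by edgeR in any comparison (2, 2 and 4 at an unadjusted p under 0.05, beside 6.44%, 8.32% and 15.9% of all genes tested). The duodenal factor Pdx1 had at most 7 reads in a library. Gata5 was the factor with the smallest p in males against virgin females, 94.8 CPM against 142.6, a log2 fold change of -0.59 (SE 0.13, edgeR adjusted p = 0.148), followed by Maf at -0.63 (SE 0.21, adjusted p = 0.565). The GATA core was found before Lct and Mgam, as in 22.6% of all promoters, and a link of Gata5 to the members was not tested. In lactating females against males Maf gave 0.66 (adjusted p = 0.166), Prdm1, a repressor known from the suckling intestine, 1.36 (SE 0.47, adjusted p = 0.203) and Gata5 0.35 (adjusted p = 0.219). In lactating against virgin females Gata4, known as a factor of the proximal intestine, gave -0.36 (edgeR adjusted p = 0.774). As a description over 18 libraries, r of Lct was 0.754 with Gata5, 0.751 with Gata6 and 0.723 with Hnf4g. With the same 3 factors in that order r was 0.634, 0.518 and 0.626 for Treh, 0.573, -0.06 and 0.639 for Sis, and 0.251, -0.24 and 0.565 for Mgam.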

How the data were processed

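Bulk poly(A) RNA-seq of 18 libraries was used, 6 each of lactating females, virgin females and virgin males, grouped by their titles. The authors deposited raw read counts per Ensembl gene; tools named in the submitters' processing notes were FastQC 0.11.5, HISAT2 2.0.4, featureCounts of Subread 2.0.0 and DESeq2 1.24.0, with build GRCm38. The annotation release, strand setting, handling of multi-mapped reads and any batches are not stated in the sources used here. All 47729 identifiers of each table name a gene, and symbols came from GENCODE M21, which held 47310 of them. Totals of 34577104 to 49039300 reads mean that counting error is small for the members. No 2 libraries agreed within sampling noise (153 pairs, lowest chi-square per degree of freedom 32.7).

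The test was edgeR 4.0.16 in R 4.3.3 (filterByExpr, TMM, quasi-likelihood, 1 mean per group, all 18 libraries, Benjamini-Hochberg over 15572 genes, threshold 0.05), tested on simulated data first. SEs were taken as the log2 fold change over the root of the F statistic, and intervals are 95%. DESeq2 1.42.0 was an alternative. Ratios and relations used log2 CPM with a prior count of 2, and 924 arrangements or 100000 permutations (scipy 1.17.1). Other alternatives were DESeq2 size factors, no filter (at least 1 count), the compared groups alone, the replicate number as a block, a cell cycle covariate, a prior count of 0.5, deviations from group means, leaving out libraries, and, added after seeing the data, a microvillus structure covariate. Same-numbered libraries were not taken as pairs.

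Genes named were the 4 members, up to 4 genes per list and comparison with the smallest p plus any called, and the 5 most like each member, though some genes that this rule takes are not reported here; the factors and the marker Cubn given by their correlation with the members were picked after their values were seen. The members and lists were chosen with earlier results of these data known. One more gene passed in the marker lists for enteroendocrine cells (Gcg) and for stroma (Vim), both in lactating females against males; the stem cell, goblet, Paneth, tuft, immune, proximal, distal and villus tip lists had 0 called by edgeR in all 3 comparisons, with 0 to 5 genes per list and comparison at an unadjusted p under 0.05.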

Additional observations from a re-analysis of the deposited data

Results flagged for a closer look

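Of 42 group values checked, 3 had a single library far from the other 5 of its group, by Dixon's ratio at its 95% critical value; chance marks about 1 in 20 groups. In virgin female 2 the log2 ratio of Sis to Lct was 0.197, against 1.18 to 1.59 in the other virgin females. In the same library the log2 ratio of Lct to the mean of the microvillus structure genes was 1.08, against 0.0816 to 0.382. In virgin male 6 the log2 ratio of Sis to Mgam was -0.51, against -0.13 to 0.01 in the other males. These are the 2 libraries with the high Gm42418 levels of 31048 and 29980 CPM. Whether that transcript has a part in the ratios was not tested.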

How the results depend on the processing

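None of the 4 members was called in any comparison under any of the 27 settings. Of the member values under alternatives 291 kept their sign and side of the threshold and 21 changed sign, while 408 ratio values kept both, 35 changed sign and 7 newly passed, 72 relation values kept both, 3 changed sign and 3 no longer passed, and 45 gene counts stayed within 1.5 times, 25 were lower and 8 higher. The precision was limited by the spread between libraries of a group. Where a value changed, the cause was not tested.

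Against 9 (lactating against virgin females), 13 (males against virgin females) and 119 (lactating females against males) genes, DESeq2 called 69, 30 and 410. Without the filter the second count was 20, and with the compared groups alone the first was 1. With the cell cycle covariate the first was 60, and with the structure covariate the first was 39 and the third 65. Without virgin female 2 and virgin male 6 the first was 1 and the third 61. Leaving out 1 library gave 2 to 16 for the first (16 without lactating 3) and 62 to 311 for the third (311 without lactating 2).

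Whether same-numbered libraries were paired is not stated in the labels, and their correlations did not decide it. The correlation of same-numbered deviations was over 0.1 in 2, 3 and 2 of 6 pairs. In the same order 0, 2 and 2 libraries correlated best with their own number. The mean same-numbered correlation was 0.071, 0.11 and 0.068, above the -0.014, -0.021 and -0.014 of differently numbered libraries. With the number as a replicate block the gene counts were 1, 11 and 114, no member was called, and Treh in lactating against virgin females was 0.042.

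In lactating against virgin females, Treh was 0.10 with the cell cycle covariate and 0.11 without the 2 libraries, where Sis was -0.023; leaving out 1 library gave -0.074 to 0.14 for Sis, -0.33 to 0.16 for Treh, -0.95 to -0.29 for Lct and -0.26 to -0.067 for Mgam. In males against virgin females, Treh was 0.076 with the cell cycle covariate, and with the structure covariate Sis was 0.022, Mgam 0.10 and Treh 0.18; leaving out 1 library gave -1.25 to -0.87 for Lct, -0.73 to -0.39 for Treh, -0.36 to -0.15 for Sis and -0.15 to -0.0043 for Mgam. In lactating females against males the structure covariate gave -0.067 for Lct and -0.25 for Treh; leaving out 1 library gave 0.12 to 0.76 for Lct, 0.24 to 0.69 for Treh, 0.21 to 0.36 for Sis and -0.21 to -0.011 for Mgam.

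Ratios that changed sign without the 2 libraries were Sis to Treh (-0.10), Sis to structure (-0.050) and Treh to structure (0.052) in the first comparison, Sis to Treh (-0.0083) and Treh to structure (0.15) in the second, and Sis to Lct (0.081) and Treh to structure (-0.10) in the third. Leaving out 1 library gave, in the first, -0.17 to 0.30 for Sis to Treh, -0.42 to 0.13 for Mgam to Treh, -0.072 to 0.10 for Sis to structure and -0.19 to 0.10 for Treh to structure. In the second it gave 0.65 to 0.996 for Sis to Lct, -1.22 to -0.84 for Lct to Mgam, -0.69 to -0.51 for Lct to Treh, -0.80 to -0.50 for Lct to structure and -0.17 to 0.043 for Treh to structure. In the third it gave -0.38 to 0.26 for Sis to Lct, 0.33 to 0.46 for Sis to Mgam, -0.40 to 0.066 for Sis to Treh, -0.22 to 0.047 for Lct to Treh, -0.86 to -0.32 for Mgam to Treh, -0.32 to 0.15 for Lct to structure, -0.69 to -0.44 for Mgam to structure and -0.13 to 0.17 for Treh to structure.

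Without the 2 libraries the relations of Lct to the villus tip (0.43, adjusted permutation p = 0.173) and structure scores (0.53, adjusted permutation p = 0.0682) did not pass, and Mgam with the distal score (-0.0043) and with Lct (-0.013) changed sign. As deviations from group means, Sis with the cell cycle score was -0.47 and did not pass (adjusted permutation p = 0.083), and Mgam with the villus tip score was 0.013.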
